A study of Macrostomum lignano with 16 samples.

Results

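The 100 transcripts with the most reads were taken from the 76437 transcripts of a whole-body RNA sequencing table of the flatworm Macrostomum lignano. They are 0.131% of its transcripts. Each count was divided by the full total of its library and scaled to 1000000 reads, which gives CPM, and the members were chosen by their mean CPM over all 16 libraries, as the first 100 in rank. Ranks, levels and read shares are therefore descriptions of what was selected. The rule used no difference between groups directly, but a mean over all libraries admits transcripts through the groups where they are high, and 22 members did not rank among the first 100 in the mean of every group. Differences between groups in those 22 are not independent of the choice, so their fold changes and p-values are given as descriptions. In each comparison with calls, the number of members called is also given for the other 78. Other counts are not split in this way. The 78 were themselves picked by their group means, which can leave out members with large differences, so their counts are descriptions too. The counts are not divided by transcript length, so abundant here means many reads, and levels of different transcripts cannot be read as numbers of molecules. Members are given by the identifiers of the transcriptome assembly, since no gene names, lengths or sequences were used here.

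All worms were adults of strain DV1, 66 to 69 days old and fed on diatoms, and they had spent 64 days in their social setting when RNA was extracted from whole bodies. Isolated worms had lived alone throughout. Joined worms had also lived alone, but each was put with 1 other worm in the final 24 h, so as to catch rapid responses to mating. Paired worms had lived with 1 partner throughout, and octet worms in groups of 8. Each group had 4 libraries, each made from a pool of worms, so p-values measure the spread between pools.

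Macrostomum lignano is a simultaneous hermaphrodite, and every adult makes both sperm and eggs. Its investment in testes and ovaries is known to shift with the number of mating partners, and a worm kept alone cannot mate with another. In messenger RNA libraries of whole animals a small number of transcripts usually takes a large part of the reads, and the level of every other transcript, expressed per library total, depends on them. In whole bodies a change in the number of cells that make a transcript and a change in RNA per cell cannot be told apart.

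The libraries held 7302416 to 10112451 estimated reads. A member had at least 827 reads in every library, and all 100 were among the 40265 transcripts that passed the filter on low counts. Fold changes come from library sizes corrected by TMM, a scaling that trims extreme transcripts, and levels are on the plain CPM scale. The first principal component was taken from the members' log2 levels after TMM scaling, and it held 70.2% of their variance. On it the octet scores lay between 2.94 and 8.37 and the isolated scores between -4.10 and -0.86. The joined scores lay between -5.75 and -2.45. Those of the paired libraries spread from -1.97 to 5.29. Octet replicate 3 was the lowest octet library, at 2.94, and paired replicate 4, at 5.29, lay above it, so counts of changed members are also given without these libraries.

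The 100 transcripts took 38.9% ± 2.099 of the reads in isolated worms, 37.4% ± 2.14 in joined worms, 35.9% ± 2.34 in paired worms and 33.3% ± 3.04 in octet worms (SD, n = 4 pools each). Single libraries ranged from 29.98% in octet replicate 3 to 40.5% in isolated replicate 2. The 95% Wilson interval of a library's share, which covers counting error only, reached at most 0.0354 percentage points to either side, far less than the spread between pools. Isolated libraries lay at 40.3%, 40.5%, 35.9% and 38.9%, and octet libraries at 36.2%, 35.5%, 29.98% and 31.5%. Isolated replicate 3 lay below octet replicate 1, so these groups overlapped.

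Most of the difference between the group means of this share lay with 1 transcript. RNA815_80.1, ranked first in all 16 libraries, held 215361, 209841, 147039 and 199220.0 CPM in the isolated pools and 164164, 168704, 91698 and 110141 CPM in the octet pools. Joined pools held 214494, 194221, 133889 and 184454 CPM and paired pools 194248, 142634, 152048 and 203871 CPM. The 4 groups overlapped, and octet replicates 3 and 4 were the lowest of all 16 libraries. Its log2 fold change in octet against isolated worms was -0.50 with a standard error of 0.22 and a 95% interval of -0.95 to -0.04, and it did not pass the test (limma-voom, adjusted p = 0.111). Ranks 2 to 10 took 7.82% ± 0.614 of reads in isolated, 7.85% ± 1.32 in joined, 6.98% ± 0.482 in paired and 7.14% ± 0.642 in octet worms. Ranks 11 to 100 took 11.8% ± 0.728, 11.4% ± 0.460, 11.6% ± 0.406 and 12.8% ± 0.492 in the same order.

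With RNA815_80.1 left out of both the sum and the total, the other 99 members took 24.3% ± 0.597 of reads in isolated, 23.5% ± 1.26 in joined, 22.5% ± 0.280 in paired and 23.0% ± 0.513 in octet worms. These shares lay between 22.2% and 25.03% in all 16 libraries.

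**Figure D1:**
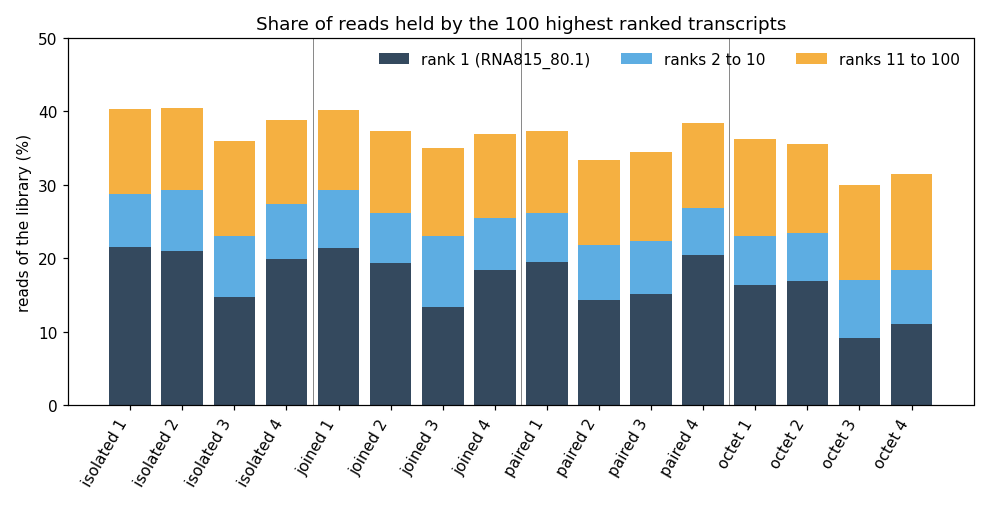
Share of all reads, in percent, taken by the 100 transcripts in each of the 16 libraries, ordered by social group, stacked from rank 1, ranks 2 to 10 and ranks 11 to 100. The whole share runs from 29.98% to 40.5%, and octet replicates 3 and 4 have the smallest part for RNA815_80.1.

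Levels fell steeply with rank. RNA815_80.1 had a mean of 170377 CPM, which is 9.72 times the reads of RNA815_3057.4 at rank 2 (17537 CPM) and 241 times those of rank 100. Only 4 members had a mean above 10000 CPM, 7 were above 5000 CPM, 24 above 2000 CPM and 62 above 1000 CPM. At the lower end the list had no natural edge. RNA815_36.1 at rank 99 had a mean of 710.3 CPM and RNA815_1206.1 at rank 100 had 706.8 CPM. Just outside, RNA815_12035.1 had 706.6 CPM and RNA815_5816 had 705.8 CPM.

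Which transcripts ranked highest differed between the group means. Of the 100 members, 52 ranked among the first 100 in all 16 libraries and 78 did so in the mean of every group. The first 100 of the isolated mean shared 95 transcripts with those of the joined mean and 80 with those of the octet mean. Paired and octet means shared 91, and joined and octet means 78. Pools of 1 group differed too. The first 100 of a single library held 83 to 92 members in isolated, 85 to 87 in joined, 85 to 96 in paired and 84 to 86 in octet worms. The widest move was that of RNA815_7102.2, which ranked 741st in isolated, 599th in joined, 34th in paired and 16th in octet worms and reached the list through the latter groups. RNA815_6793, RNA815_5573.1 and RNA815_18818.1 also ranked among the first 100 in the paired and octet means alone, and RNA815_10152.1 in the octet mean alone. RNA815_104.1 and RNA815_38757 did so in the isolated and joined means alone, and RNA815_12252.1, RNA815_15363.1 and RNA815_4 in all but the octet mean.

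The widest contrast in social setting was that of octet against isolated worms, and it divided the abundant transcripts in both directions. Of the 100 members, 39 rose and 22 fell in the octet group (limma-voom at an adjusted p under 0.05), against 21.5% of all tested transcripts (12.8% higher, 8.65% lower). Those that rose had a median log2 fold change of 0.71 (range 0.35 to 4.23), and those that fell had a median of -1.29 (range -2.14 to -0.54). Among the first 10 ranks 3 rose and 5 fell, and among ranks 11 to 100, 36 rose and 17 fell. The changes past 2-fold numbered 8 higher and 14 lower, against 7.6% of all tested transcripts in both directions. They include members that entered through the groups where they are high, such as RNA815_7102.2 and RNA815_104.1. These changes were not counted for the other 78 members alone. Of the 78 members in the first 100 of every group mean, 29 rose and 14 fell. Without paired replicate 4 and octet replicate 3 together, 51 of the 100 rose and 21 fell. Both alternatives were chosen after the data were seen.

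The split of these calls by direction depended on the scale. With library sizes taken from the reads outside the 100 members, 24 rose and 32 fell, as the median of all transcripts moved by -0.19 log2 units. Relative to TMM scaling the median of the members was 0.30 and that of all tested transcripts -0.03, and relative to reads outside the members they were 0.11 and -0.22.

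The largest log2 fold change belonged to RNA815_7102.2, a member only through the paired and octet groups, so that its rise is partly fixed by the choice of members. It held 186, 167, 112 and 113 CPM in isolated pools and 169.7, 193, 100.6 and 220.4 CPM in joined pools. Paired pools held 1682, 949, 1259.8 and 2178 CPM and octet pools 2686, 3098, 2011 and 2441 CPM. Every paired and octet pool lay above every isolated and joined pool, with nothing between 220.4 and 949 CPM. In octet against isolated worms its log2 fold change was 4.23 with a standard error of 0.27 (limma adjusted p = 8.53e-10).

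RNA815_6793, likewise a member through the paired and octet groups, followed a graded pattern. Isolated pools held 379, 386, 427 and 407 CPM and joined pools 399.7, 353, 316 and 353 CPM. Paired pools held 1033, 954, 1314 and 980.3 CPM and octet pools 1840.2, 1589, 1726 and 1609 CPM. All octet pools lay above all paired pools, and the paired pools above all isolated and joined pools. Its log2 fold change in octet against isolated worms was 2.14 (SE 0.13, limma adjusted p = 3.71e-10).

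RNA815_5573.1, a member through the same groups, had the same order over a smaller range. Isolated pools held 559.8, 583, 529 and 407 CPM, paired pools 934, 836, 884 and 1039 CPM and octet pools 1273, 1425, 1080.3 and 1205 CPM. The 3 groups did not overlap, and the joined pools, at 422, 482, 357 and 472 CPM, overlapped the isolated pools. Octet against isolated worms gave a log2 fold change of 1.33 (SE 0.16, limma adjusted p = 4.22e-06). The step from paired to octet worms, at 0.52 (SE 0.16, limma adjusted p = 0.0825), did not pass the test.

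RNA815_7257.2, at rank 24, had the largest rise among the members that ranked in the first 100 of every group. Isolated pools held 1375, 1517, 1669 and 1314 CPM and joined pools 1004, 1195, 1123 and 1272 CPM. Paired pools held 2104, 1856, 2163 and 2495 CPM and octet pools 3759, 3280.1, 2807 and 3550.1 CPM. No group overlapped another in this transcript, with joined lowest and octet highest. Its log2 fold change in octet against isolated worms was 1.25 (SE 0.15, limma adjusted p = 4.68e-06).

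Among the first 10 ranks the rises were smaller. RNA815_3057.4 held 16874, 16244, 20306 and 11955 CPM in isolated and 20909.7, 22714, 21820.0 and 28582 CPM in octet pools, a log2 fold change of 0.60 (SE 0.20, limma adjusted p = 0.0326). RNA815_3057.3, which shares its number, changed by 0.66 (SE 0.21, limma adjusted p = 0.0263). RNA815_5256 held 6471, 7152, 10286 and 6250.5 CPM in isolated and 9255, 10112, 9980.0 and 12324 CPM in octet pools, a log2 fold change of 0.55 (SE 0.16, limma adjusted p = 0.0198), and isolated replicate 3 overlapped the octet pools. These 3 rises were close to the threshold, and none of them passed with library sizes from reads outside the members. The calls ended in RNA815_3057.4 on leaving out isolated 1, 2 or 4 or octet 1, 2 or 4 (log2 0.45 to 0.61), in RNA815_3057.3 on leaving out isolated 1 or 4 or octet 1, 2 or 4 (0.47 to 0.66), and in RNA815_5256 on leaving out isolated 1, 2 or 4 or octet 1 or 4 (0.47 to 0.54). RNA815_169.1, at rank 8, did not pass the test, with a log2 fold change of 0.28 (SE 0.10, limma adjusted p = 0.0507).

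The steepest fall was in RNA815_31.1, at rank 9. Isolated pools held 4980.1, 7594, 2764 and 6468 CPM and octet pools 1115, 924, 2732 and 534 CPM. The highest octet pool, replicate 3, lay just below the lowest isolated pool, also replicate 3. Its log2 fold change was -2.14 with a standard error of 0.44 (limma adjusted p = 0.00153). The pools of each group spread widely in this transcript.

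RNA815_123.3 fell by 1.55 on the log2 scale (SE 0.47, limma adjusted p = 0.0236), and its isolated and octet pools overlapped. Without isolated 2 or 4 or octet 2 or 4 it no longer passed (log2 -1.45 to -1.11). RNA815_123.1 at rank 4 and RNA815_92.1 at rank 7 fell by 1.39 and 1.26 on the same scale (limma adjusted p = 0.0104 and 0.0173). Their groups overlapped too, and leaving out octet 4, or for RNA815_92.1 also isolated 4, ended the call, at log2 -1.06 for RNA815_123.1 and between -1.13 and -0.90 for RNA815_92.1. RNA815_104.1, a member through the isolated and joined groups, fell by 1.51 (SE 0.32, limma adjusted p = 0.00229) from 1117, 1459, 407 and 1008 CPM in isolated pools to 366, 409, 298 and 189 CPM in octet pools. In it, isolated replicate 3 lay just below octet replicate 2, and the other isolated pools lay above all octet pools.

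RNA815_3639, at rank 12, was high in isolated and joined pools. Isolated pools held 3721, 3766, 4641 and 5007 CPM and joined pools 4154, 3792, 6089 and 3698 CPM. Paired pools held 1932, 3410.0, 3114 and 809 CPM and octet pools 1541, 1131, 2170.1 and 1137 CPM. The isolated pools lay above all paired and octet pools. The paired and octet pools overlapped, as did the isolated and joined pools, and paired replicate 4 was the lowest of all 16. Its log2 fold change in octet against isolated worms was -1.50 (SE 0.27, limma adjusted p = 0.000589).

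RNA815_46233, at rank 6, held 7307, 8946, 15652 and 8870.5 CPM in isolated pools and 6350.2, 3677, 8962 and 7126 CPM in joined pools. Paired pools held 4715, 5026, 6079.6 and 4911 CPM and octet pools 4449, 3801, 3319 and 3841 CPM. Isolated replicate 3 stood far above the rest, and the octet pools lay below all isolated and all paired pools. The log2 fold change in octet against isolated worms was -1.28 (SE 0.22, limma adjusted p = 0.000313), and its call held without any 1 library.

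**Figure D2:**
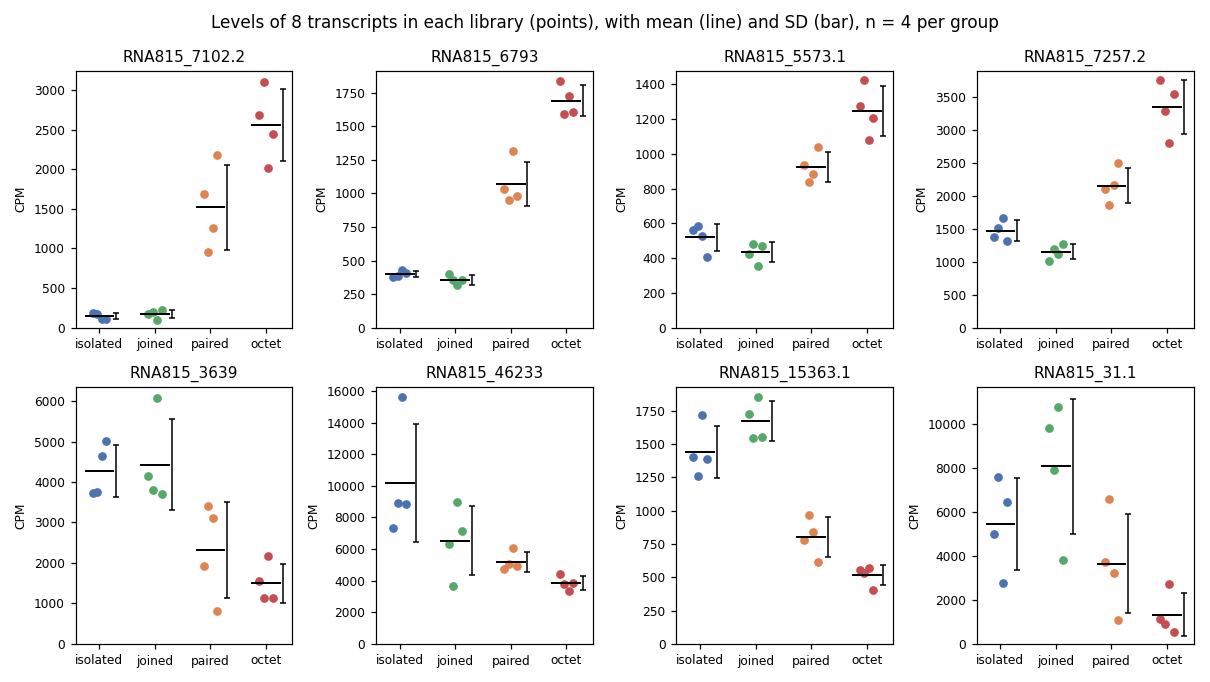
Levels in CPM, on linear axes that start at 0, of 8 members in each of the 16 pools by social group, with points for pools, lines for group means and bars for the SD (n = 4). RNA815_7102.2, RNA815_6793, RNA815_5573.1 and RNA815_7257.2 were higher in octet than in isolated worms, and RNA815_3639, RNA815_46233, RNA815_15363.1 and RNA815_31.1 were lower.

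The share of members that changed was close to that of the ranks just below them. Of the next 100 transcripts, 63% were called in octet against isolated worms (51 higher, 12 lower), as were 55.4% of the 800 after those and 41.5% of the 4000 that followed. The median standard error of a log2 fold change was 0.16 in the members and 0.25 over all tested transcripts. The median absolute log2 fold change was 0.57 in the members and 0.38 over all tested transcripts.

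Paired and isolated worms differ in the lasting presence of 1 partner. In paired worms 7 members rose and 8 fell (limma-voom at an adjusted p under 0.05), against 1.81% of all tested transcripts (1.37% higher, 0.437% lower) and 15% of the 100 ranks below the members. Their log2 fold changes ran from 0.56 to 3.33 where higher and from -1.10 to -0.65 where lower. The comparison shares its isolated pools with that of octet worms, so the values are set side by side without a test of their likeness. Without paired replicate 4 the members called were 23, and without it and octet replicate 3 they were 28, of which 9 were higher and 19 lower. With a quality weight per library they were also 28. Of the 78 members in the first 100 of every group mean, 2 rose and 5 fell.

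RNA815_7102.2 had the largest rise in paired worms, with a log2 fold change of 3.33 (SE 0.27, limma adjusted p = 1.25e-07), beside 4.23 in octet worms. RNA815_6793 changed by 1.39 (SE 0.13, limma adjusted p = 6.78e-07), beside 2.14 in octet worms. RNA815_5573.1 changed by 0.81 (SE 0.16, limma adjusted p = 0.00565), beside 1.33. The paired mean lay between the isolated and octet means in each of these 3, but in RNA815_7102.2 the paired and octet pools overlapped. Octet against paired worms did not pass the test in RNA815_7102.2 (limma adjusted p = 0.0778) or RNA815_5573.1 (limma adjusted p = 0.0825).

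RNA815_3906, at rank 25, was higher in both groups with lasting company than in isolated worms. Paired pools held 2467, 2376, 2450.1 and 2355 CPM and octet pools 2257, 2626, 2856 and 2639.9 CPM. Isolated pools held 1609.6, 1315, 1380.2 and 1422 CPM and joined pools 1155, 1743, 1335 and 1353 CPM. All paired and octet pools lay above all isolated and joined pools. The lowest octet pool lay below all paired pools, and the other octet pools lay above them. The log2 fold change was 0.73 (SE 0.12, limma adjusted p = 0.000952) in paired and 0.92 in octet worms, each against isolated worms, and its difference between octet and paired worms was 0.19 with a 95% interval of -0.06 to 0.43 (limma adjusted p = 0.379).

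Among the falls, RNA815_15363.1, which was not in the first 100 of the octet mean, went from 1403, 1258, 1716 and 1385 CPM in isolated pools to 782, 971, 842 and 616 CPM in paired and 552, 529, 572 and 403 CPM in octet pools. The joined pools held 1726, 1546, 1857 and 1556 CPM. The octet pools lay below all paired pools and the paired pools below all isolated and joined pools. The log2 fold change in paired against isolated worms was -0.88 (SE 0.13, limma adjusted p = 0.000399).

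RNA815_38757, a member through the isolated and joined groups, held 910.3, 901, 1307 and 939 CPM in isolated pools, 486, 539, 627 and 603 CPM in paired pools and 637, 557, 473 and 646 CPM in octet pools. Isolated replicate 3 was far above the other isolated pools, and all isolated pools lay above all paired and octet pools. Paired against isolated worms gave a log2 fold change of -0.86 (SE 0.16, limma adjusted p = 0.00278). RNA815_3639 and RNA815_46233 had the largest falls, -1.10 (SE 0.27, limma adjusted p = 0.0375) and -0.95 (SE 0.22, limma adjusted p = 0.0235). Both calls depended on single pools. That of RNA815_46233 ended without isolated 3 or paired 1 or 2 (log2 -0.90 to -0.73). That of RNA815_3639 ended without any 1 of the isolated pools, joined 1 or paired 1 or 4 (log2 -1.16 to -0.71).

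Joined and isolated worms differed only in the last 24 h. No member passed the test in joined against isolated worms (limma-voom; also 0 with limma-trend), and 0% of all tested transcripts did. At an unadjusted p under 0.05 there were 23 members, against 5.89% of all tested transcripts. The fold changes leaned to 1 side, with 85 of 100 members lower in joined worms and a median of -0.18, where the median of all tested transcripts was 0.00. With full column totals 74 of 100 were lower, with a median of -0.08 for the members and 0.11 for all tested transcripts.

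The smallest p among members in that comparison belonged to RNA815_4988.2. Isolated pools held 975, 962, 1218 and 908 CPM and joined pools 819, 756, 791 and 731 CPM. All joined pools lay below all isolated pools. The log2 fold change was -0.48 with a standard error of 0.13 and a 95% interval of -0.76 to -0.21 (limma adjusted p = 0.831). For RNA815_7102.2 the interval of joined against isolated worms was -0.47 to 0.69, and for RNA815_5573.1 it was -0.69 to -0.03.

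Joined and paired worms both had 1 partner at the end, for 24 h or throughout. In joined worms 6 members were higher and 21 lower than in paired worms (limma-voom at an adjusted p under 0.05), against 4.58% of all tested transcripts (1.33% higher, 3.25% lower) and 23% of the next 100 ranks. The split depended on the scale, with 13 higher and 18 lower under full column totals and 14 higher and 17 lower under reads outside the members. Leaving out joined replicate 1, joined replicate 3 or paired replicate 3 left 17 calls, and leaving out paired replicate 4 with octet replicate 3 gave 15 higher and 20 lower. Quality weights gave 42 calls, and among the 78 members of every group's first 100 there were 3 higher and 13 lower. RNA815_7102.2 had the largest difference, a log2 fold change of -3.22 (SE 0.27, limma adjusted p = 1.62e-07). RNA815_6793 differed by -1.66 (limma adjusted p = 7.17e-08), RNA815_5573.1 by -1.17 (limma adjusted p = 7.21e-05) and RNA815_7257.2 by -0.98 (limma adjusted p = 0.00033).

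Members higher in joined than in paired worms included RNA815_15363.1 and RNA815_12252.1, at log2 fold changes of 1.00 and 0.98 (SE 0.13 each, limma adjusted p = 5.93e-05 and 7.08e-05). RNA815_16738 held 1157, 1496, 1321 and 1543 CPM in joined and 779.7, 791, 795 and 899 CPM in paired pools, with no overlap, a log2 fold change of 0.68 (SE 0.16, limma adjusted p = 0.0147). RNA815_3639 differed by 1.03 (SE 0.27, limma adjusted p = 0.0326), a call that ended without joined 1, 2 or 3 or paired 1 or 4 (log2 0.64 to 1.09). These 4 stood in joined worms at levels that overlapped those of isolated worms.

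Octet and paired worms differ in the number of lasting partners. Here 8 members rose and 2 fell in the octet group (limma-voom at an adjusted p under 0.05), against 1.44% of all tested transcripts (1.03% higher, 0.407% lower) and 8% of the next 100 ranks. At an unadjusted p under 0.05 there were 48 members, against 19.9% of all tested transcripts. The count rested on single pools. Leaving out paired replicate 4 gave 46 calls, leaving out octet replicate 3 gave 31, and leaving out both gave 60 (48 higher, 12 lower). There were 0 calls without octet replicate 1, 1 without paired replicate 1 or 2, 2 without octet replicate 4, 4 without paired replicate 3, and 6 without isolated replicate 1 or 2 or joined replicate 1 or 3. Quality weights gave 48 calls, limma-trend 6 and a fit to these groups alone 0. Among the 78 members of every group's first 100, 5 rose and 0 fell.

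The member with the smallest adjusted p between octet and paired worms was RNA815_6793, with a log2 fold change of 0.76 (SE 0.13, limma adjusted p = 0.00724), whose call ended without octet 1 (log2 0.66). The largest log2 fold change was in RNA815_10152.1, a member only through the octet group where it is high, so its rise is partly fixed by the choice of members. It held 809, 573, 724 and 502 CPM in isolated pools, 645, 441, 700.3 and 718 CPM in paired pools and 1724, 1783, 911 and 1106 CPM in octet pools. All octet pools lay above all other pools, and octet 1 and 2 lay well above octet 3 and 4. Octet and paired worms differed in it by 1.198 log2 units (SE 0.24, limma adjusted p = 0.0199), and without paired 1 or 2 or octet 1 or 2 the call ended (log2 1.00 to 1.22).

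RNA815_18818.1 rose by 0.90 (SE 0.20, limma adjusted p = 0.0314), with paired replicate 4 at 1156 CPM inside the octet range of 1100.1 to 1639.9 CPM. RNA815_7257.7 and RNA815_7257.8 rose by 0.82 and 0.77 (limma adjusted p = 0.0261 and 0.0203). The falls were those of RNA815_12252.1 and RNA815_15363.1, both at -0.55 (limma adjusted p = 0.0454 and 0.0454). Each of these 5 calls ended when 1 of several single pools was left out, with log2 values of 0.72 to 0.89, 0.67 to 0.85, 0.63 to 0.80, -0.59 to -0.44 and -0.65 to -0.43 in the order named.

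Octet against joined worms gave the most calls. In octet worms 56 members were higher and 19 lower than in joined worms (limma-voom at an adjusted p under 0.05), against 34.9% of all tested transcripts (18.6% higher, 16.2% lower) and 76% of the next 100 ranks. The median log2 fold change was 0.53 in the members and -0.04 over all tested transcripts. With library sizes from reads outside the members 50 were higher and 31 lower, as the median of all tested transcripts moved by -0.26. Without paired replicate 4 and octet replicate 3 there were 58 higher and 18 lower, and among the 78 members of every group's first 100 there were 46 higher and 12 lower. RNA815_7102.2 differed by 4.11 (SE 0.27, limma adjusted p = 7.84e-10) and RNA815_6793 by 2.42 (SE 0.13, limma adjusted p = 7e-11). RNA815_7257.2 and RNA815_5573.1 differed by 1.71 and 1.69 (limma adjusted p = 3.69e-08 and 9.42e-08).

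The largest difference downwards was again in RNA815_31.1, at -2.60 (SE 0.44, limma adjusted p = 0.000138), with joined pools at 9827, 7919, 10768 and 3814 CPM. RNA815_104.1 differed by -1.96 (limma adjusted p = 0.000119), RNA815_4 by -1.84 (limma adjusted p = 0.00629) and RNA815_123.2 by -1.76 (limma adjusted p = 5.24e-05). In RNA815_31.1, RNA815_104.1 and RNA815_123.2 all octet pools lay below all joined pools, and in RNA815_4 the groups overlapped.

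**Figure D3:**
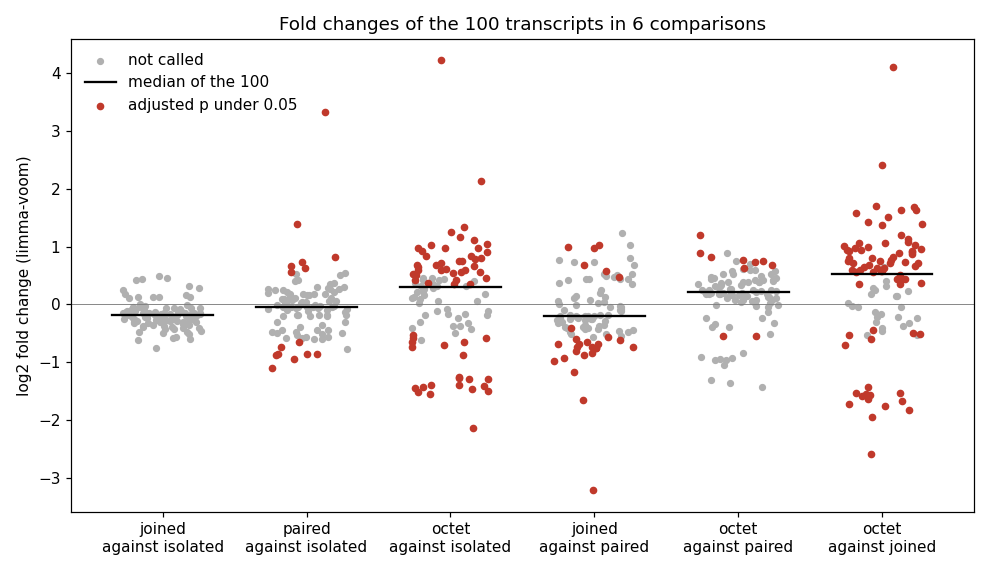
Log2 fold changes (limma-voom) of the 100 members in each of the 6 comparisons, with 1 point per member, red where the adjusted p was under 0.05 and grey elsewhere, and a line at the median of the 100. Octet against joined has the most calls, 75, and joined against isolated has 0.

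Over all 4 groups 75 of the 100 members differed (F-test of limma-voom on the group terms, adjusted p under 0.05), against 23.7% of all tested transcripts, 70% of the next 100 ranks and 65.9% of the 800 after those. Without paired replicate 4 and octet replicate 3 the count was 86, and among the 78 members of every group's first 100 it was 57. Read by their calls in the comparisons other than joined against isolated, 22 members had none. Another 17 were higher in octet than in joined worms and had no other call. There were 16 higher in octet worms than in both isolated and joined worms with no other call, and 12 lower than both with no other call. These patterns were not counted over all tested transcripts, so they cannot be read as particular to the members. They are splits at the threshold. RNA815_169.1, among the 17, had an adjusted p of 0.0507 (limma-voom) in octet against isolated worms.

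**Figure D4:**
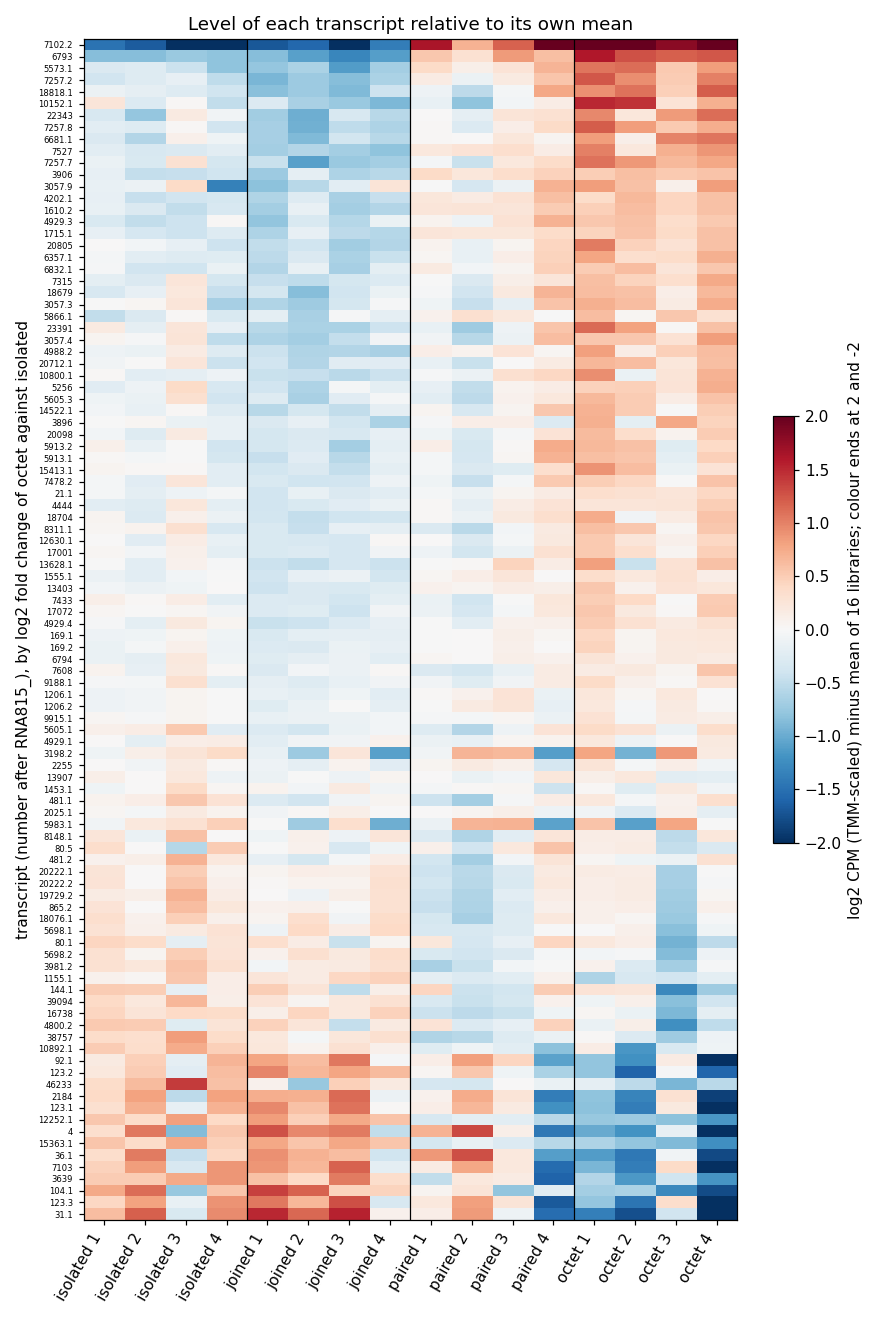
Log2 level of each of the 100 members in the 16 libraries minus the member's mean over all libraries (TMM-scaled log2 CPM, red higher, blue lower, colour ends at 2 and -2), with members in rows ordered by their fold change in octet against isolated worms and libraries in columns. Blocks of members change between the isolated and joined libraries on 1 side and the octet libraries on the other, while paired libraries vary, with paired replicate 4 near the octet libraries.

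The members differed widely in how much pools of 1 group varied. The coefficient of variation pooled within groups had a median of 15.2% and ran from 6.52% to 58.8%. Counting error, taken at each member's mean count over the 16 libraries, was at most 1.304%. It is larger in pools with fewer reads and leaves out the error of dividing reads among similar transcripts. Single pools often stood at 1 end of their group on the TMM scale, with isolated replicate 3 the highest of its group in 59 members, paired replicate 4 in 65, and joined replicate 4 and octet replicate 1 in 48 each, and with paired replicate 2 the lowest in 65 and octet replicate 3 in 57. The steadiest were RNA815_21.1 (6.52%), RNA815_169.1 (7.91%) and RNA815_13403 (7.93%). RNA815_21.1 held 705, 642, 702 and 732 CPM in isolated and 809, 861, 939 and 952 CPM in octet pools, and this small rise passed the test at a log2 fold change of 0.42 (SE 0.10, limma adjusted p = 0.00677) but not with library sizes from reads outside the members.

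At the other end 10 members varied by more than 40% between pools of 1 group, a group formed after the data were seen and described without a test. They were RNA815_123.1, RNA815_92.1, RNA815_31.1, RNA815_123.3, RNA815_7103, RNA815_3198.2, RNA815_5983.1, RNA815_4, RNA815_2184 and RNA815_36.1. The widest, RNA815_123.3, held 3975, 6542, 4204 and 965 CPM in the paired pools and 1699, 1152, 4622 and 627 CPM in the octet pools. RNA815_7103 varied by 57.6% and RNA815_4 by 56.2%.

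These 10 shared several of their high and low pools. Within the octet group, replicate 3 was the highest in all 10, and within the paired group replicate 4 was the lowest in all 10. Joined replicate 4 was also the lowest of its group in all 10, and isolated replicate 3 in 8. Their summed share was 0.973% of reads in paired replicate 4 and 4.92% in paired replicate 2. In the octet pools it was 1.36%, 0.944%, 3.22% and 0.699%, and in the isolated pools 3.23%, 4.36%, 2.33% and 4.42%. Joined pools held 5.30%, 4.39%, 6.35% and 2.60%. Paired replicate 4 thus lay within the octet range and octet replicate 3 within the paired and isolated ranges, the same libraries that stood out on the first component. The part of these libraries' makeup in the results was not tested.

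**Figure D5:**
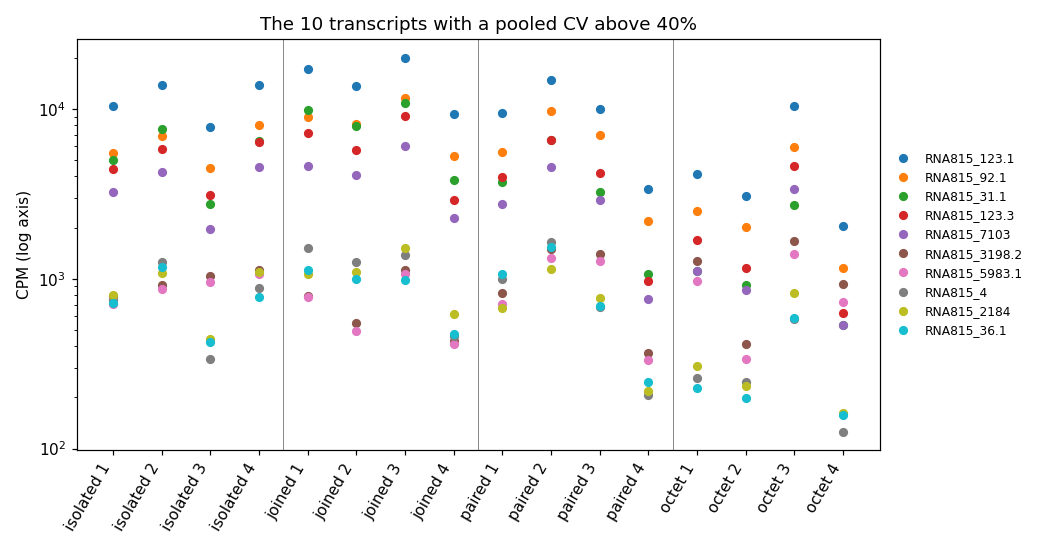
Levels in CPM on a log axis of the 10 members that varied most between pools of 1 group, in the 16 libraries. Within their own groups all 10 were lowest in paired replicate 4 and highest in octet replicate 3. In isolated replicate 3 and octet replicate 4, 8 were the lowest of their group, and RNA815_3198.2 and RNA815_5983.1 were not.

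Transcripts whose identifiers share the number before the dot are called a family here. Reads that match several transcripts were divided by estimation, so levels of similar transcripts depend on each other. Of the members, 28 share a number with another member, in 12 families. The family RNA815_7257 holds 8 transcripts, of which 3 are members. Its summed level was 3812 ± 553 CPM in isolated, 2867 ± 209.8 in joined, 5053 ± 686 in paired and 7900.1 ± 722 in octet worms (SD, n = 4). All 3 members rose in octet against isolated worms, by 1.25, 1.03 and 0.97 on the log2 scale (limma adjusted p = 4.68e-06, 6.37e-05 and 0.00044), under every scaling tried.

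RNA815_3057 holds 16 transcripts, and its 3 members took 97.98% of the family's reads. The family stood at 30432 ± 7169 CPM in isolated, 25478 ± 5835 in joined, 32301 ± 8481 in paired and 44569 ± 5783 in octet worms. The members of RNA815_123, 3 of 4 transcripts, were all lower in octet than in isolated and in joined worms. RNA815_1206.1 and RNA815_1206.2 had no call in any comparison, with a family level of 2462 ± 169 CPM in isolated and 2591 ± 323 CPM in octet worms.

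In 2 families, RNA815_4929 and RNA815_5605, members had shares of the family's reads that did not overlap between isolated and octet worms. Other families had members whose shares did not overlap between other groups. Examples are RNA815_481.2 between joined and octet worms and RNA815_7257.8 between isolated and paired worms. Such shares were not computed for the other families of the table, so they cannot be read as particular to the members. RNA815_4929.3 took 27.3% ± 2.74 of the reads of its family in isolated, 28.2% ± 3.14 in joined, 34.5% ± 4.97 in paired and 34.6% ± 2.43 in octet worms. RNA815_4929.1 took 25.4% ± 0.579, 27.1% ± 0.461, 21.0% ± 0.815 and 19.2% ± 1.16 in the same order. Of the 3 members, RNA815_4929.3 rose in octet against isolated worms, at 0.80 (SE 0.16, limma adjusted p = 0.00142). RNA815_4929.4 lay between, at 0.32 (SE 0.12, limma adjusted p = 0.0588), and it rose against joined worms by 0.65 (limma adjusted p = 0.000335). RNA815_4929.1 had a log2 fold change of 0.06 with a 95% interval of -0.18 to 0.30 (limma adjusted p = 0.752). The differences between these fold changes were not tested. RNA815_5605.3 took 46.0% ± 1.68 of its family's reads in isolated and 54.0% ± 0.878 in octet worms, and RNA815_5605.1 took 29.4% ± 0.801 and 25.3% ± 0.270. The isolated and octet shares of each did not overlap.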

How the data were processed

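RNA from pools of whole worms was extracted with TRIzol and sequenced as single-end reads of 100 bp, per the labels. The submitters' processing notes name Bowtie 0.12.7 and RSEM 1.1.19, and the file header names a transcriptome assembly. The deposited table gives estimated counts with decimal commas and no depth scaling, in 16 columns matched to libraries by the headers in the labels. The commas were read as decimal points, and no count model was run. RSEM divides reads that match several transcripts.

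Levels are CPM, counts scaled to 1000000 reads of the full column total. For tests the counts were rounded, and transcripts were kept with at least 1.26 CPM (10 reads in the median library) in 4 libraries and a sum of at least 15. TMM factors (trims of 30% for ratios and 5% for abundance) ran from -0.23 to 0.13 log2 units. Limma-voom (R 4.3.3, limma version 3.58.1, with a pseudocount of 0.5) was fitted to the 4 groups and all 16 libraries, with 12 residual and 10.3 prior degrees of freedom. Its two-sided tests were adjusted by Benjamini-Hochberg across the 40265 transcripts in each comparison, and 0.05 was the threshold for "rose", "fell" and "called". Intervals are at 95%. The script was tested on simulated counts.

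The members and comparisons were chosen with earlier results of these data known. Named are the first 10 ranks, at most 4 higher and 4 lower called members per comparison with the largest fold change, the neighbours of rank 100, the 3 members with the largest and the 3 with the smallest spread, members sharing a number, and the member with the smallest p in joined against isolated worms. RNA815_3198.2, RNA815_5983.1 and RNA815_2184 were named after their values were seen. The 24 pairs of libraries of 1 group differed by more than counting noise (chi-square per degree of freedom 2.99 to 24.3). Alternatives covered scaling, filters, rounding, a replicate block, limma-trend (pseudocount 2), quality weights, a threshold of 0.01, fits to 2 groups, other ways to choose members and leaving out libraries. The 78 members of every group's first 100, and leaving out paired replicate 4 with octet replicate 3, were added after the data were seen.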

Additional observations from a re-analysis of the deposited data

Results flagged for a closer look

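Of 208 sets of 4 pools looked at in the 50 named members and the read shares, 7 held a pool whose gap to the nearest other pool, as a part of the range of the 4, exceeded the 95% limit of Dixon's test, where chance gives about 1 in 20. RNA815_38757 stood at 1307 CPM in isolated replicate 3, with the other isolated pools at 901 to 939 CPM. RNA815_4988.2 stood at 1108 CPM in octet replicate 2, with the other octet pools at 1583 to 1623 CPM. RNA815_16738 stood at 899 CPM in paired replicate 4, above the other paired pools at 779.7 to 795 CPM, and at 594 CPM in octet replicate 3, below the other octet pools at 879 to 918 CPM. RNA815_36.1 stood at 588 CPM in octet replicate 3, with the others at 158 to 228 CPM. RNA815_5913.1 stood at 1908 CPM in octet replicate 3, with the others at 2662 to 2815 CPM. RNA815_1206.1 stood at 729 CPM in joined replicate 3, with the others at 644 to 653 CPM. Octet replicate 3 thus held 3 of the 7 values.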

How the results depend on the processing

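Of 270 recomputed counts and shares, 236 stayed within 1.5 times the count or 1 SD of the share. Leaving out 1 of 4 pools cannot move a mean share by 1 SD, so those shares were bound to stay. The 236 therefore does not measure how firm the results are. At a threshold of 0.01 the members called were 36 in octet against isolated, 1 in octet against paired and 13 in joined against paired worms. With a replicate block they were 23 in paired against isolated and 28 in octet against paired worms, and with quality weights 28, 48 and, in joined against paired worms, 42. Octet against paired worms gave 6 calls with limma-trend and 0 when only those groups were fitted (48 at an unadjusted p under 0.05 in the fit to all groups). Without paired 4 and octet 3 paired against isolated gave 28 and octet against paired 60. Among the 78 members of every group's first 100, the calls in paired against isolated, octet against paired and joined against paired worms were 7, 5 and 16. Without RNA815_80.1 the shares were 24.3% in isolated, 23.5% in joined, 22.5% in paired and 23.0% in octet worms. Leaving out each library gave 41 to 73 calls in octet against isolated, 10 to 23 in paired against isolated, 0 to 0 in joined against isolated, 0 to 46 in octet against paired, 17 to 33 in joined against paired, 70 to 79 in octet against joined and 56 to 84 over all groups. The share of the 100 then ran from 38.4% to 39.9% in isolated, 36.4% to 38.2% in joined, 35.1% to 36.8% in paired and 32.3% to 34.4% in octet worms. That of RNA815_80.1 ran from 18.5% to 20.8%, 17.1% to 19.8%, 16.3% to 18.3% and 12.2% to 14.8% in the same order. Of 107 calls of named members 69 held in all 29 alternatives run for them and 38 were lost in at least 1. None changed direction. The replicate block ended none of them. The labels do not say that replicate numbers pair libraries. Deviations of 24 same-number pairs correlated at r = -0.13 to 0.39, with 10 above 0.1, and 7 of 16 libraries correlated best with their own number, so the block was kept as an alternative. The cause of these shifts was not tested.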

Other observations

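A pair of members with different numbers kept nearly 1 ratio in all libraries. The level of RNA815_12252.1 was 1.00 to 1.16 times that of RNA815_15363.1 over the 16 libraries, with a median of 1.11. RNA815_3198.2 stood at 1.02 to 1.31 times RNA815_5983.1, with a median of 1.11. This ratio was less even, and in each octet pool it was above that in every other pool. Both pairs were chosen after their values were seen, and whether the transcripts of a pair share sequence was not tested. RNA815_3198.2 held 1270.4, 415, 1671 and 933 CPM in the octet pools and 824, 1500.5, 1394 and 368 CPM in the paired pools, so pools of 1 group differed in it more than the group means did.

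The spread of reads over the whole table also differed between pools. Reaching 50% of the reads of a library took 383 ± 55.04 transcripts in isolated, 471 ± 77.8 in joined, 496 ± 111 in paired and 509 ± 131 in octet worms (SD, n = 4 each), and the ranges of isolated (340.0 to 457) and octet pools (383 to 683) overlapped. To reach 25% took 4 to 16 transcripts in isolated and 14 to 46 in octet pools. At 75% the order differed, with 3656 ± 112 transcripts in isolated, 4255 ± 189.5 in joined, 3952 ± 522 in paired and 3588 ± 531 in octet worms.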
